A study of Mus musculus with 2 samples.

Results

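The transcripts of 8 genes that move, store and sense iron were followed in ribosome footprints from the neonatal mouse brain. The genes were Fth1, Ftl1, Tfrc, Trf, Slc11a2, Aco1, Ireb2 and Slc40a1. They were taken by symbol from a table of 45578 genes, where all 8 were found. Symbols were the transcript names without their trailing number, and counts were added up over all transcripts of a gene. The study profiled polysomes from control mouse brain taken at postnatal day 5, with 2 biological replicates, each labelled as a control mouse brain, and no second group. The animals were of the FVB strain and carried the genotype Smn+/-; SMN2tg/0, that is, 1 working copy of mouse Smn and a human SMN2 transgene. This is the heterozygous form of the Taiwanese mouse line, and both libraries share the alleles, the age and the tissue. Polysomes were collected from a sucrose gradient of 15 to 50%, digested with RNase I for 2 h at 4 °C, and fragments of 25 to 35 nucleotides were sequenced.

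Iron enters most cells when transferrin (Trf) binds its receptor (Tfrc) and is taken up, and the divalent metal transporter DMT1 (Slc11a2) then moves the metal out of the endosome. Ferritin, a hollow shell of heavy (Fth1) and light (Ftl1) subunits, stores the excess, and ferroportin (Slc40a1) exports it. The iron regulatory proteins IRP1 (Aco1) and IRP2 (Ireb2) bind hairpins called iron-responsive elements when iron is low. Bound in the leader of ferritin or ferroportin mRNA they block initiation, and bound after the stop codon of Tfrc mRNA they protect it from decay. In the brain, transferrin is made chiefly by oligodendrocytes and the choroid plexus, and the receptor is abundant on capillary endothelium and neurons.

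Each gene was placed with the RefSeq table of assembly GRCm38.p6; the submitters' processing notes name an earlier patch of that build, GRCm38.p4. Fth1 (ENSMUSG00000024661) lies on chromosome 19 from 9980600 to 9985111, and Ftl1 (ENSMUSG00000050708) on chromosome 7 from 45457944 to 45459886. Tfrc (ENSMUSG00000022797) lies on chromosome 16 from 32608896 to 32632794, and Trf (ENSMUSG00000032554) on chromosome 9 from 103208876 to 103230286. Slc11a2 (ENSMUSG00000023030) lies on chromosome 15 from 100387898 to 100424209, and Slc40a1 (ENSMUSG00000025993) on chromosome 1 from 45908070 to 45926532. Aco1 (ENSMUSG00000028405) lies on chromosome 4 from 40143265 to 40199009, and Ireb2 (ENSMUSG00000032293) on chromosome 9 from 54862658 to 54912534.

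The members differ widely in length. The ferritin coding sequences are short, at 549 nucleotides for Fth1 and 552 for Ftl1. The coding sequence is 2292 nucleotides in Tfrc, 2094 in Trf, 1707 in Slc11a2, 1713 in Slc40a1, 2670 in Aco1 and 2892 in Ireb2, each taken from the coding transcript with the highest mean count. The stretches after the stop codon are longest in Ireb2, at 2793 nucleotides, and Tfrc, at 2458, against 150 in Fth1 and 163 in Ftl1. The leader is 167 nucleotides in Fth1, 253 in Ftl1, 319 in Slc40a1 and 491 in Aco1.

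The libraries held 1866831 footprints in replicate 1 and 5261878 in replicate 2, so values of replicate 2 carry less counting error. With CPM as the count scaled to the library total, a gene without footprints could still lie at 1.61 CPM in replicate 1 or 0.570 CPM in replicate 2, the levels of 3 counts. Markers of the labelled tissue were present: all 10 neuronal and all 10 astrocyte markers had footprints in both libraries, with summed levels of 6798 and 5277 CPM for neurons and 2705 and 2684 CPM for astrocytes. Intervals are exact Clopper-Pearson 95% intervals, cover counting error only, and treat PCR copies as separate molecules. RNA abundance in the same brains was not analysed here, and a footprint level is therefore no measure of translational efficiency.

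The 8 genes together held 1273 footprints in replicate 1 and 3604 in replicate 2. Their summed level was 682 and 685 CPM, or 683 ± 2.14 CPM (SD, n = 2). The ferritin pair took 56.4% of these footprints in replicate 1 and 47.4% in replicate 2, while it makes up 7.61% of the summed coding length of the members. All 8 passed the filter, a mean count of 10 or more, and the lowest count of any member was 34.

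Ferritin subunits stood far above the other members once counts were set against coding length. Ftl1, the light subunit, collected 391 footprints in the first library and 1019 in the other. All levels below are CPM per coding kilobase. The Ftl1 level was 379 (343 to 419) in replicate 1 and 351 (330 to 373) in replicate 2, which average 365 ± 20.2 (SD, n = 2). Fth1, the heavy subunit that carries the ferroxidase activity, had 327 and 691 footprints. Its level was 319 (285 to 356) in replicate 1 and 239 (222 to 258) in replicate 2, averaging 279 ± 56.5. With all transcripts summed, Ftl1 was the higher gene of the pair in both libraries. With coding transcripts alone, which drops the counts placed on its other transcripts, the Ftl1 level was 100.3. That is below Fth1, which has 1 transcript and stayed at 279. The median level of the 13317 coding genes that averaged 10 or more footprints was 23.9, which Ftl1 exceeded 15.3-fold and Fth1 11.7-fold; with coding transcripts alone in every gene, the median was 18.7 and the folds were 5.36 and 14.9. Among these genes Ftl1 was at percentile 97.04 and Fth1 at percentile 95.6.

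Short coding sequences tend to show higher levels on this scale, so the members were also read against genes of like length. Across the 13317 coding genes, Spearman's rho between coding length and level was -0.45, a description of genes that share libraries and depth; between coding length and CPM it was 0.06. Among the 1301 genes whose coding length lay within 20% of that of Ftl1, the median level was 62.0, and Ftl1 was at percentile 92.7. Among the 1293 genes near the length of Fth1, the median was 63.4 and Fth1 was at percentile 88.3. The distance of the ferritins from the typical gene was thus 5.89-fold for Ftl1 and 4.40-fold for Fth1 at matched length. With coding transcripts alone in every gene it was 2.12-fold for Ftl1, at percentile 74.3 of its window, and 5.87-fold for Fth1, at percentile 91.96. This window was chosen after the levels were seen.

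**Figure D1:**
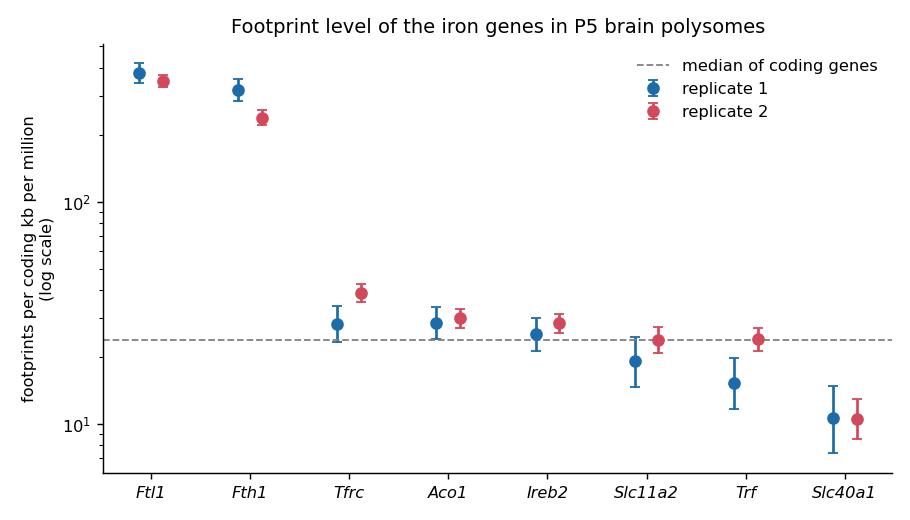
Footprint level of each of the 8 iron genes (y axis, CPM per coding kilobase, log scale) in replicate 1 and replicate 2; bars are exact 95% intervals for counting error and the dashed line is the median of 13317 coding genes, at 23.9. Ftl1 and Fth1 lie at 239 or higher in both libraries, and the other 6 genes lie between 10.5 and 38.7.

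Uptake was represented by a receptor near the upper middle of the coding genes and a ligand below it. Tfrc had 121 and 467 footprints in replicates 1 and 2, at levels of 28.3 (23.5 to 33.8) and 38.7 (35.3 to 42.4), averaging 33.5 ± 7.38 (SD, n = 2). The intervals of the 2 libraries did not overlap, and replicate 2 was the higher. Trf had 60 and 265 footprints, at levels of 15.3 (11.7 to 19.8) and 24.1 (21.2 to 27.1), averaging 19.7 ± 6.15. Its intervals did not overlap either, and replicate 2 was again the higher. Slc11a2, the endosomal transporter, had 61 and 215 footprints, at levels of 19.1 (14.6 to 24.6) and 23.9 (20.8 to 27.4), averaging 21.5 ± 3.39, and its intervals overlapped. Among all coding genes, Tfrc was at percentile 59.5, Slc11a2 at 47.1 and Trf at 44.8. Among genes of like coding length, Tfrc was at percentile 72.6, Slc11a2 at 54.1 and Trf at 53.9.

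The iron regulatory proteins had nearly equal levels. Aco1, which is a cytosolic aconitase when it holds an iron-sulfur cluster, had 142 and 420 footprints. Its level was 28.5 (24.0 to 33.6) and 29.9 (27.1 to 32.9), averaging 29.2 ± 0.994 (SD, n = 2). Ireb2, which is regulated by degradation of the protein, had 137 and 432 footprints, at levels of 25.4 (21.3 to 30.0) and 28.4 (25.8 to 31.2), averaging 26.9 ± 2.13. Slc40a1, the exporter ferroportin, was the lowest member with all transcripts summed. It had 34 and 95 footprints and levels of 10.6 (7.36 to 14.9) and 10.5 (8.53 to 12.9). Its mean was 10.6 ± 0.0653, a spread smaller than counting error, and it lay at percentile 28.5 of the coding genes and 32.5 of those of like length.

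With all transcripts summed, the order from the highest level down was Ftl1, Fth1, Tfrc, Aco1, Ireb2, Slc11a2, Trf and Slc40a1. The gap from Fth1 to Tfrc, 246 on the level scale, exceeded the replicate spread and the counting intervals in both libraries. Ftl1 and Fth1 had overlapping intervals in replicate 1 and separate ones in replicate 2. Tfrc and Aco1 did not differ beyond their spread: Aco1 was marginally the higher in replicate 1 with overlapping intervals, and Tfrc the higher in replicate 2 with separate ones. Aco1 and Ireb2 kept their order but overlapped in both libraries, as did Ireb2 and Slc11a2. Slc11a2 and Trf changed places, with Trf the higher in replicate 2. Trf and Slc40a1 overlapped in replicate 1 and were apart in replicate 2. With coding transcripts alone, Fth1 came before Ftl1, and Ireb2, at 26.9, before Tfrc, at 23.9, and Aco1, at 23.7. With the highest transcript alone Tfrc was at 14.6, below Ireb2 and Aco1, and Trf, at 5.61, lay below Slc40a1, at 6.39. Per transcript length Aco1 was at 20.3, Trf at 16.0, Tfrc at 15.7, Ireb2 at 13.4, Slc11a2 at 12.2 and Slc40a1 at 5.38. By CPM, without regard to length, Aco1, Ireb2 and Tfrc were nearly equal, at means of 77.9, 77.7 and 76.8 CPM, against 153 CPM for Fth1 and 202 CPM for Ftl1.

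Ratios within a library cancel its depth and were taken for the paired functions. The heavy to light ratio of ferritin, Fth1 over Ftl1 per coding nucleotide, was 0.841 (0.724 to 0.976) in replicate 1 and 0.682 (0.618 to 0.752) in replicate 2, averaging 0.761 ± 0.112 (SD, n = 2). Both intervals lay below 1 and overlapped each other. The ratio turned with the choice of transcripts: it was 2.79 when protein-coding transcripts alone were counted, and 0.541 when footprints on annotated ferritin copies were added to their parents. Tfrc over Trf was 1.84 (1.34 to 2.55) in replicate 1 and 1.61 (1.38 to 1.88) in replicate 2, so the receptor had the higher level in both; per transcript length it was 0.993. Aco1 over Ireb2 was 1.12 (0.882 to 1.43) and 1.05 (0.919 to 1.21), and both intervals included 1.

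The ferritin ratio depends on the transcripts counted because Ftl1 counts were placed on several annotated transcripts. How shared fragments were assigned among overlapping transcripts is not given in the sources used here. A count on the coding transcript alone leaves out any of its fragments that were placed on the other forms. Fth1 has 1 transcript in the table, Fth1-201, which is protein coding and held all its footprints. Ftl1 has 5, of which only Ftl1-001 encodes the full subunit of 183 residues. Ftl1-001 held 102 footprints in replicate 1 and 295 in replicate 2, or 27.5% ± 2.02 of the gene's count (SD, n = 2). Ftl1-002, annotated as a target of nonsense-mediated decay with an open reading frame of 255 nucleotides, held 114 and 257, or 27.2% ± 2.78. The retained-intron transcript Ftl1-003 held 79 and 215. The processed transcripts Ftl1-004 and Ftl1-005 held 66 and 168, and 30 and 84. Per kilobase of transcript the coding form stood at 105 footprints in replicate 1 and the decay form at 121, and in replicate 2 at 305 and 273. In replicates 1 and 2 the retained-intron form stood at 95.8 and 261, Ftl1-004 at 93.0 and 237, and Ftl1-005 at 49.7 and 139. How shared fragments were divided among these transcripts is not known, so their densities do not measure translation of the decay form.

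A sum over overlapping transcripts is meaningful only if a shared fragment is counted once. This was checked on 40 pairs of coding transcripts that belong to 1 gene, match in every annotated length and average 10 or more footprints. Squared count differences divided by count sums averaged 1.25 in replicate 1, 0.775 in replicate 2 and 1.01 over both, against 0 if every fragment were given to both members of a pair and 1 if counts were independent. Equal lengths do not show that the members of a pair share sequence, and a pair without shared sequence cannot test this. The sum was kept with that limit, and the exons that the Ftl1 transcripts share were not analysed here.

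Ferritin genes have spawned intronless copies in mammalian genomes, and fragments of this length can match a copy as well as its parent. The table held 3 genes that are ferritin copies by their symbol or by RefSeq's symbols and synonyms, and all 3 had footprints. Gm10116 (ENSMUSG00000062382), which RefSeq calls Ftl1-ps1 and lists as a pseudogene on chromosome 13, is annotated as protein coding in the deposited table, with the same coding length as Ftl1, 552 nucleotides. It held 89 footprints in replicate 1 and 255 in replicate 2, or 47.7 CPM (38.3 to 58.7) and 48.5 CPM (42.7 to 54.8). Its density per kilobase of transcript was 96.5 footprints in replicate 1 and 277 in replicate 2, close to the 105 and 305 of Ftl1-001. Ftl2 (ENSMUSG00000082062), the processed pseudogene that RefSeq calls Ftl2-ps on chromosome 4, held 88 and 159 footprints, or 47.1 CPM (37.8 to 58.1) and 30.2 CPM (25.7 to 35.3). Its intervals did not overlap, and it was the lower in replicate 2. Fth-ps2 (ENSMUSG00000091313), a processed pseudogene of the heavy subunit on chromosome 6, held 4 and 16 footprints.

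Among the copies found, those of the light subunit took the larger part; copies that carry neither a ferritin symbol nor a ferritin synonym would be missed. Of the footprints on Ftl1 and its 2 copies, the copies held 31.2% (27.4 to 35.1) in replicate 1 and 28.9% (26.6 to 31.3) in replicate 2, or 30.03% ± 1.61 (SD, n = 2). Of those on Fth1 and its copy, the copy held 1.21% (0.330 to 3.07) and 2.26% (1.30 to 3.65). For both ferritins together the share on the copies found was 20.1% (17.6 to 22.9) in replicate 1 and 20.1% (18.4 to 21.9) in replicate 2. The mean of this share was 20.1% ± 0.0283, a spread smaller than counting error. It was 10.3% when Gm10116, whose symbol does not name it as ferritin, was left out. With copies added, the light-subunit level became 551 in replicate 1 and 493 in replicate 2, and the heavy-subunit level 323 and 245. Counts of Ftl1, Gm10116 and Ftl2 are uncertain to this extent, since the treatment of fragments with several matches is not given in the sources used here. The 9 genes of the Fthl17 family, relatives of the heavy subunit on the X chromosome, had 0 footprints in both libraries. Some of them are annotated as unprocessed pseudogenes.

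**Figure D2:**
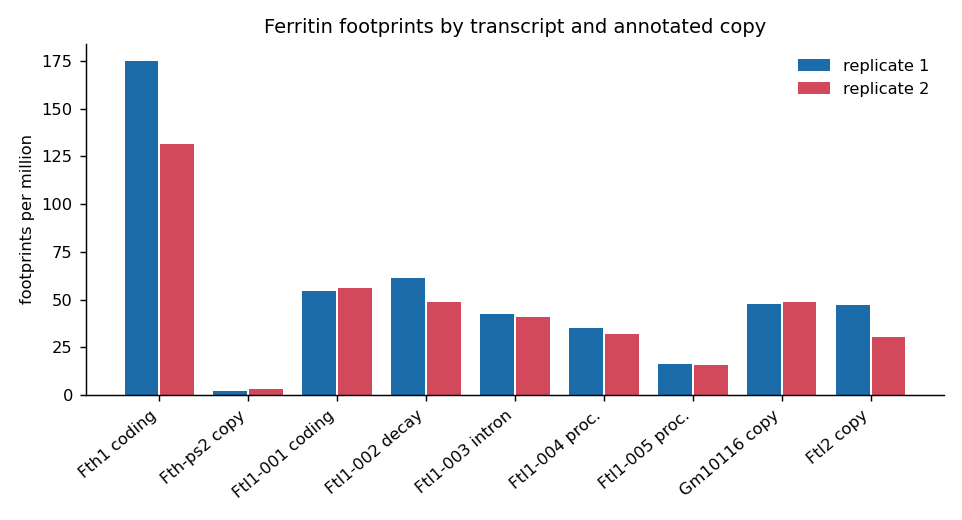
Level in CPM (y axis) on each annotated ferritin transcript and on the ferritin copies, with 1 bar for each replicate. Fth1 counts sit on a single coding transcript, while Ftl1 counts are placed on 5 annotated transcripts, and the Ftl1 copies Gm10116 and Ftl2 reach 48.5 and 47.1 CPM.

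Most footprints of the other members lay on coding transcripts. Across all 8 genes, with Ftl1 included, protein-coding transcripts held 69.7% of the footprints in replicate 1 and 71.6% in replicate 2. The mean was 70.6% ± 1.33 (SD, n = 2), against 80.2% ± 1.12 over all coding genes. Ftl1 weighs on this share: it brought 391 of the 1273 footprints in replicate 1 and 1019 of the 3604 in replicate 2. Of these, 102 and 295 lay on its coding transcript. Ireb2 has 1 transcript, so its share was 100%. The coding share was 83.5% ± 2.23 in Slc11a2, 81.1% ± 0.858 in Aco1, 77.5% ± 6.87 in Slc40a1 and 71.1% ± 2.39 in Tfrc. It was 71.7% (58.6 to 82.5) in replicate 1 and 87.2% (82.5 to 90.9) in replicate 2 for Trf, the widest change of any member. By the mean of the replicates, Ftl1 lay furthest below the 80.2% of all coding genes, with 27.5%. The means of Tfrc, Slc40a1 and Trf were also below it, and in replicate 1 Tfrc was at 69.4% against 81.0%.

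In Tfrc, the full-length transcript Tfrc-001 held 52 footprints in replicate 1 and 206 in replicate 2, or 43.5% ± 0.803 of the gene. Tfrc-002, with a coding sequence of 1548 nucleotides and 235 nucleotides after the stop codon in place of 2458, held 31 and 134, or 27.2% ± 2.17. Both shares were alike in the replicates. Per kilobase of transcript the order turned. Tfrc-001 stood at 10.6 footprints in replicate 1 and 42.1 in replicate 2, and the shorter Tfrc-002 at 16.7 and 72.0. Slc11a2 has a pair of leading coding transcripts that differ in coding length and in the stretch after the stop codon. Slc11a2-001 encodes 568 residues with 1186 nucleotides after the stop codon and held 25 and 73 footprints. Slc11a2-002 encodes 561 residues with 2650 nucleotides after it and held 15 and 72. Their shares were 37.5% ± 4.97 and 29.04% ± 6.29, which did not differ beyond the spread. Trf-001 and Trf-002 have the same coding length of 2094 nucleotides and held 13 and 10 footprints in replicate 1, and 87 and 68 in replicate 2. The main coding form Slc40a1-001 held 21 and 56 footprints, or 60.4% ± 1.99 of its gene. As for Ftl1, how shared fragments were divided among the transcripts of these genes is not known. The shares are also not corrected for transcript length, so they do not measure how much each form was translated.

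**Figure D3:**
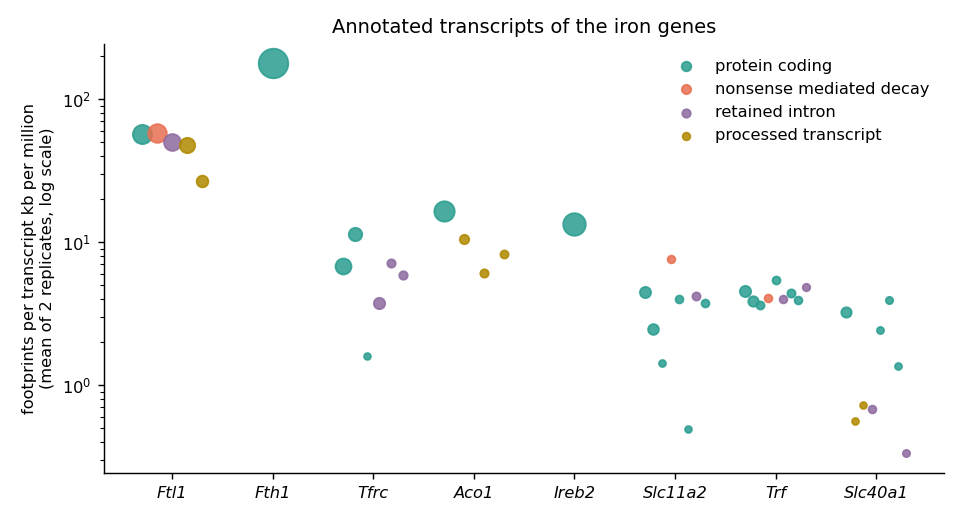
Mean density of the 42 annotated transcripts of the 8 genes (y axis, CPM per transcript kilobase, log scale; mean of 2 replicates), coloured by annotated class, with point area growing with the summed count; transcripts without footprints in a library enter with 0 there. Of the Ftl1 transcripts, 4 lie close together and the processed transcript Ftl1-005 lies lowest, while Fth1 and Ireb2 have a single point each.

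With 1 group, the remaining comparison is between the replicate libraries, which shows how far the members differ between these 2 libraries. With 1 library per replicate, differences between brains and between library preparations cannot be told apart. A two-sided exact binomial test set each gene's counts against the ratio of effective library sizes (TMM, trimmed mean of M values), adjusted over 16427 genes by the Benjamini-Hochberg method. It compares these libraries with counting noise alone. Of the 8 members, 2 were called, against 17.4% of all genes tested, and both were lower in replicate 2, against 11.5% of all genes. With 8 genes, 2 calls do not stand apart from that background. Under library totals in place of TMM, which raises every log2 ratio by 0.13, 3 members were called against 19% of all genes, of which Tfrc and Trf were higher in replicate 2, against 11.5% of all genes, and Fth1 lower, against 7.47%. From TMM to library totals, the share of called genes higher in replicate 2 went from 34.2% to 60.7%.

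The ferritin subunits were the called members. Fth1 went from 175 CPM in replicate 1 to 131 CPM in replicate 2, a log2 ratio of -0.54 (counting SE 0.097; exact binomial test, adjusted p = 1.46e-06). It was lower in replicate 2 under every scaling and transcript choice tried. Ftl1 went from 209 to 194 CPM, a log2 ratio of -0.24 (counting SE 0.086; exact binomial test, adjusted p = 0.0365). That call was lost with library totals, where the ratio was -0.11 (exact binomial test, adjusted p = 0.414), and with coding transcripts alone, where it was -0.06 (exact binomial test, adjusted p = 0.895). With the trend of ratio on footprint density removed, Fth1 stayed called at -0.29 and Ftl1 was at 0.0083.

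The transferrin pair leaned the other way without passing the test. Trf went from 32.1 CPM to 50.4 CPM, a log2 ratio of 0.52 (counting SE 0.21; exact binomial test, adjusted p = 0.0548). Tfrc went from 64.8 CPM to 88.8 CPM, a log2 ratio of 0.33 (counting SE 0.15; exact binomial test, adjusted p = 0.117). With library totals both were called, at log2 ratios of 0.64 and 0.45 (exact binomial test, adjusted p = 0.0107 and 0.0132). Trf was also called with coding transcripts alone, at 0.82 (exact binomial test, adjusted p = 0.00291), with the highest transcript and with a mean count of 50 or more. Slc11a2 had a log2 ratio of 0.19, Slc40a1 of -0.14, Aco1 of -0.06 and Ireb2 of 0.04, and none was called (exact binomial test, adjusted p from 0.628 to 0.959). Aco1 took the opposite sign under library totals, at 0.069. The members called numbered 2 with DESeq2 size factors, against 17.4% of all genes, 3 with a mean count of 50 or more, against 26.8%, and 2 with coding transcripts alone, against 18.2%. They numbered 2 with the highest transcript, against 9.41%, 1 with no filter, against 9.93%, and 1 with the density trend removed, against 16.6%. With edgeR's exact test and a common dispersion estimated from the same pair of libraries, 0 of the 8 were called and 0 had an unadjusted p under 0.05, against 11 genes or 0.067% called in all. That dispersion takes in the difference under test as noise, so few calls are left by construction and no conclusion is drawn from the 0 calls.

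Markers of cells known to make or take up transferrin were read beside these genes. Of 12 oligodendrocyte markers 11 had footprints in both libraries, with Opalin at 0. Their summed level was 1045 CPM in replicate 1 and 1283 CPM in replicate 2, with 5 of the 11 tested called higher and 3 lower in replicate 2, against 5.95% and 11.5% of all genes. Mbp, a myelin protein gene, went from 231 to 410 CPM, while Olig2, a lineage transcription factor, went from 87.8 to 49.98 CPM. All 10 choroid plexus markers had footprints; their sum was 688 and 392 CPM, and without Ttr, the transthyretin gene that led it, 106 and 115 CPM, and of the 10 tested 1 was called, lower in replicate 2. All 10 endothelial markers had footprints, with sums of 387 and 392 CPM, 1 called higher and 1 lower. Of the 10 neuronal markers, whose sums are given above, 7 were called lower and 0 higher in replicate 2, with a median log2 ratio of -0.56. Of the 10 astrocyte markers, 3 were called lower and 0 higher, with a median of -0.17. The part of these markers in the differences of Fth1, Ftl1, Trf or Tfrc was not tested, and in whole tissue fewer cells of a type and less RNA per cell cannot be told apart. Of the 8 liver markers, Alb, Apoa2, Fgb, Ahsg and Hamp had 0 footprints in both libraries. Apoa1 had 1 and 6 footprints and Serpina1a 0 and 2. Ttr, which is also in the choroid plexus list, had 1087 and 1456, and it made up most of the liver sums of 583 and 278 CPM. It was the only liver marker tested and was called lower. All 8 red cell markers found had footprints, with sums of 2488 and 1706 CPM led by the globins, and 4 of the 6 tested were called lower. The 10 microglial markers summed to 374 and 367 CPM, with 1 called higher and 2 lower.

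**Figure D4:**
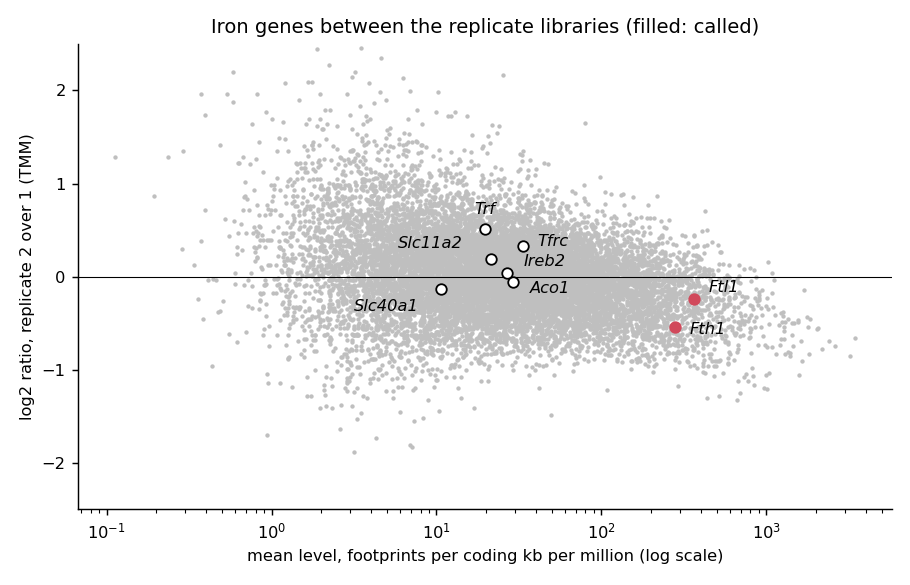
Log2 ratio of replicate 2 over replicate 1 with TMM scaling (y axis) against mean level (x axis, CPM per coding kilobase, log scale) for 13317 coding genes in grey, of which 21 lie outside the y range, and for the 8 iron genes as large points. Fth1 and Ftl1, filled, were called and lie below 0 at the high end of the levels; the 6 open points were not called.

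Other iron-handling genes were counted from 5 lists of 76 genes in all, of which 64 passed the filter. The exact binomial test called 12 of them, or 18.8% against 17.4% of all genes tested, with 6 higher and 6 lower in replicate 2, against 5.95% and 11.5% of all genes. The median log2 ratio of all genes tested was 0.01. Library totals add 0.13 to each list's median, which takes the slightly negative medians of the heme and iron-sulfur lists above 0. Alas2 stands in both the list of iron-responsive elements and the heme list and was counted once in the total.

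Other carriers of iron-responsive elements had mostly middle to low levels. All 5 listed were tested, with a median level of 22.0 and a median log2 ratio of -0.14. The test called 1 higher and 1 lower in replicate 2. Cdc42bpa, a kinase that acts downstream of CDC42, had a level of 22.0 ± 8.10 (SD, n = 2) and was called higher, at a log2 ratio of 0.64. Epas1, the hypoxia factor HIF-2 alpha, had a level of 23.5 ± 0.203 and was not called. Alas2, the erythroid enzyme that starts heme synthesis, had 20 and 91 footprints, and Cdc14a, a phosphatase, 9 and 21.

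Iron transport and its hormone axis were mostly low. Of 27 genes, 22 had footprints, 16 were tested, 1 was called higher and 3 lower in replicate 2; their median level was 11.8 and their median log2 ratio -0.22. Slc22a17, a receptor for lipocalin 2, had a level of 420 ± 155, the highest of this list, and was called lower at -0.895. Slc48a1, a heme transporter, had a level of 86.6 ± 9.76. Neo1, a receptor that takes part in hepcidin control and in axon guidance, had a level of 64.98 ± 6.03 and was called lower at -0.32. Tfr2, the liver-type transferrin receptor, held 18 and 22 footprints and was called lower at -1.23. Cp, the ferroxidase ceruloplasmin, held 27 and 171 footprints and was called higher at 1.02. Hamp and Hamp2, which encode hepcidin, had 0 footprints in both libraries, as did Hephl1, Mfi2 and Lcn2.

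Genes of ferritin loading and turnover included some of the highest levels. Of 8 genes, 7 were tested, with a median level of 68.5 and a median log2 ratio of 0.07. The test called 1 higher and 1 lower in replicate 2, against 5.95% and 11.5% of all genes. With library totals 5 were called, 4 higher and 1 lower, against 11.5% and 7.47% of all genes. Skp1a, a subunit of SCF ubiquitin ligases, had a level of 867 ± 2.80 (SD, n = 2). The iron chaperones that load ferritin had levels of 276 ± 26.3 for Pcbp2 and 222 ± 54.7 for Pcbp1, of which Pcbp1 was called lower at -0.63. Fbxl5, the iron-sensing adaptor that marks IRP2 for degradation, had a level of 34.3 ± 13.2 and was called higher at 0.68. Ncoa4, the receptor that takes ferritin to the lysosome, had a level of 68.5 ± 10.5 and was not called. Ftmt, mitochondrial ferritin, had 0 footprints in both libraries.

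Calls in the heme and iron-sulfur lists are to be read against the 17.4% of all genes. All 13 heme genes were tested, with a median level of 27.8, a median log2 ratio of -0.04 and 1 call, Uros, the uroporphyrinogen III synthase, which was higher in replicate 2 at 1.06. The highest levels were those of Alad, the second enzyme of the pathway, at 109 ± 0.468, of Hmox2, the constitutive heme oxygenase, at 87.3 ± 15.5, and of Urod, a decarboxylase, at 61.4 ± 4.48. All 24 iron-sulfur genes were tested, with a median level of 30.4, a median log2 ratio of -0.01, 2 calls higher and 1 lower in replicate 2. Nfu1, a cluster carrier, had a level of 149.6 ± 8.33, Glrx5, a mitochondrial glutaredoxin, 142 ± 36.6 and Ciapin1, a cytosolic assembly factor, 124 ± 1.13. Glrx5 was called lower at -0.65, and the cytosolic assembly genes Narfl, at 1.25, and Mms19, at 0.49, were called higher.

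**Figure D5:**
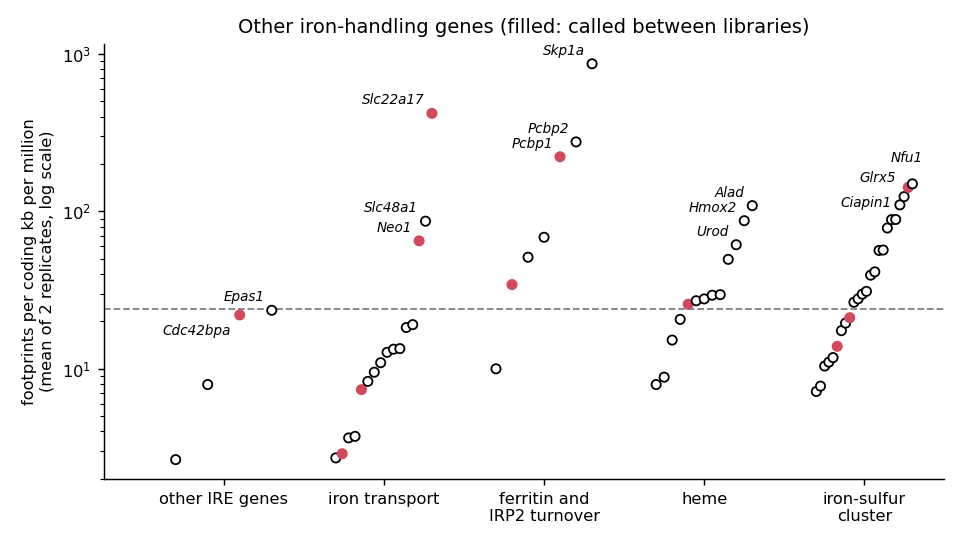
Mean level of tested genes in the 5 lists of other iron-handling genes (y axis, CPM per coding kilobase, log scale; n = 2), ordered by level within a list; filled points were called between the libraries, and the dashed line is the median of coding genes, 23.9. Up to 3 of the highest genes of each list are named; Skp1a is the highest, at 867.

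The genes nearest in level over both libraries were found by the distance between log2 levels, among 13301 coding genes. They were Myl6 and Hist1h3c for Fth1, at levels of 321 and 315 in replicate 1 and 241 and 238 in replicate 2. For Ftl1 they were Scoc and Ost4, at distances of 0.045 and 0.046. For Tfrc they were Sppl2a and Cars, and for Trf Polr3f and Tpx2, at distances of 0.0059 to 0.023. A likeness over 2 libraries describes a shared level only.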

How the data were processed

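Ribosome-protected fragments were measured in 2 control brains. In the file the authors deposited, values are raw counts of footprints for each annotated transcript, 1 column per replicate, beside annotated lengths. Per the submitters' processing notes, Trimmomatic 0.36, Bowtie2 2.2.6, SAMtools and build GRCm38.p4 were used; the annotation release, strand, duplicates and multiple matches are not given in the sources used here.

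Counts were summed per gene. Levels are CPM on library totals, divided by the coding length of the gene's highest coding transcript. The test was an exact binomial test (SciPy 1.17.1) against TMM effective library sizes (edgeR 4.0.16; factors 0.957 and 1.04), on genes averaging 10 or more footprints, called at an adjusted p under 0.05; log2 ratios use a prior of 0.5 CPM. With 1 group there is no contrast for edgeR's quasi-likelihood model. The test was checked on simulated data with counting noise alone, which does not cover further variation between libraries. The 8 members, the lists and the tests were chosen with earlier results of these data known. Of the listed symbols, 3 were updated through RefSeq synonyms, and 1 (Ahsp) was not found.

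Genes named were the members, up to 5 ferritin copies, the 3 highest and every called gene of each list, and the 2 nearest genes of Fth1, Ftl1, Tfrc and Trf; other genes were named after their values were seen. Values of 2 listed genes are not reported here. Alternatives were other scalings (DESeq2 1.42.0 size factors among them), filters, transcript choices, lengths, copies, dispersion, the density trend in 10 strata, and leaving out each replicate.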

Additional observations from a re-analysis of the deposited data

How the results depend on the processing

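Of 82 alternatives to the main results, 52 left the value within the replicate spread, or the number of calls within 1.5 times. Some of the 52 could not move: leaving out a replicate stays within the spread by construction, and the longest coding sequence gave identical values. The median level of the 8 members, 28.0, became 15.9 per transcript length, 23.8 with coding transcripts only and 19.1 with the highest transcript alone. The heavy to light ratio, 0.761, became 2.79 with coding transcripts only, 2.79 with the highest transcript and 0.541 with copies added. Aco1 over Ireb2, 1.09, became 1.52 per transcript length and 0.882 with coding transcripts only or the highest transcript. Tfrc over Trf, 1.73, became 0.993 per transcript length and 2.91 with the highest transcript. The copy share of ferritin, 20.1%, became 10.3% with symbols that start with Fth or Ftl and 30.02% with coding transcripts of the parents. The coding share of the members, 70.6%, became 79.5% when decay targets were included. These changes follow from the transcripts or lengths counted.

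Calls among the 8 members went from 2 to 1 with no filter, 1 with the density trend removed and 0 with edgeR's exact test. Of all genes tested, 17.4% were called in the main test and 9.93% with no filter. The share was 16.6% with the trend removed and 0.067% with edgeR's exact test, whose dispersion takes in the difference under test. With that test each of the 5 lists also had 0 calls, with 6 listed genes at an unadjusted p under 0.05. With library totals the heme list had 2 calls in place of 1, and ferritin turnover 5 in place of 2, where 19% of all genes were called. With the highest transcript 9.41% of all genes were called. The list calls were then 0 for heme, 1 for iron-sulfur in place of 3, 2 for iron transport in place of 4, and 1 for ferritin turnover. With the density trend removed the calls were 1 for other iron-responsive genes in place of 2, and 4 for ferritin turnover, against 16.6% of all genes. Log2 ratios that changed sign were near 0 after it: Ftl1 at 0.0083 and Ireb2 at -0.012 with the trend removed, Slc11a2 at -0.0015 with the highest transcript, and Aco1 at 0.069 with library totals; for changes of calls the cause was not tested. Leaving out a replicate moved no level, ratio or share beyond the spread, which with 2 replicates follows by construction; the comparison between libraries cannot be made without 1 of them. No paired analysis was possible because the samples form a single group. Depth limits Slc40a1, Trf and Slc11a2 most, with 34 to 61 footprints in replicate 1.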
